A study of Drosophila melanogaster with 10 samples.

Results

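Oxidative phosphorylation is carried out by 5 large complexes of the inner mitochondrial membrane, and most of their protein subunits are encoded in the nucleus. The genes described here are all genes whose FlyBase symbol begins with ND- (complex I), Sdh (complex II), UQCR (complex III), COX and a digit (complex IV) or ATPsyn (complex V). The rule found 88 of the 17735 gene identifiers in the files, of which 40 belong to complex I, 8 to complex II, 9 to complex III, 16 to complex IV and 15 to complex V. Of the 88, 63 are subunits, 24 are paralogs that carry the name of a subunit with an added L, and Sdhaf3 is an assembly factor of complex II. They were followed in RNA sequencing of whole Drosophila melanogaster larvae of the third instar, strain y1w1118, in 10 libraries of 5 genotypes with 2 libraries each. The mutants lack the parts of architectural zinc-finger proteins that bind CP190, a protein of insulators and promoters. The study asks how CTCF, Su(Hw) and Pita share the recruitment of CP190. The first mutant is dCTCFdeltaCP (the CTCF mutant). The others are dCTCFdeltaCP with SuHwdelta114 (the Su(Hw) double mutant), with PitadeltaCP1 (the Pita double mutant) and with both (the triple mutant). The control is dCTCFwt (wild type). Every mutant carries dCTCFdeltaCP, so the Su(Hw) and Pita mutations were measured only on a CTCF mutant background. No label gives a date, a batch, the sex of the larvae or how many were pooled. Larvae were taken whole, so each value is a mean over all larval tissues.

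Complex I (NADH dehydrogenase) passes electrons from NADH to ubiquinone, and complex II (succinate dehydrogenase) passes them from succinate to the same carrier. Complex III moves them on to cytochrome c, and complex IV (cytochrome c oxidase) gives them to oxygen. Complex V (ATP synthase) uses the proton gradient to make ATP. Complexes I, III, IV and V also hold subunits encoded in mitochondrial DNA, while complex II is wholly nuclear. In flies, many nuclear subunit genes have a duplicate, and these L-named paralogs are known mainly from the testis. Muscle, fat body and gut are large mitochondria-rich tissues of the larva.

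The libraries held 5670793 to 8220126 reads assigned to genes, so that a single read was worth 0.0927 to 0.289 CPM, the reads of a gene scaled to a common library size. Library sizes were scaled with TMM factors, and levels of different genes are compared only per kb of exon. The members together took 2.99% and 2.96% of the reads from nuclear genes in the CTCF mutant, 1.53% and 1.51% in the Su(Hw) double mutant, 1.56% and 1.51% in the Pita double mutant, 1.25% and 1.5% in the triple mutant and 2.43% and 2.38% in wild type. The CTCF mutant thus had the highest shares, and none of the libraries of the other mutants reached the level of wild type. Mitochondrially encoded transcripts took 8.67% to 34.6% of assigned reads, with the highest shares in the CTCF mutant. Of all assigned reads, mitochondrial ones included, the members took 1.95% and 2.24% in the CTCF mutant and 2.09% and 2.03% in wild type, and these ranges overlapped. The libraries of the Su(Hw) double mutant stood closer together than those of any other group: chi-square per degree of freedom over genes was 1.78 between them and 14.3 to 41.4 between the libraries of the other groups. No source states that they are separate RNA preparations, and p-values measure the spread between libraries, which may be technical.

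Of the 88 members, 78 had enough reads to be tested, namely 59 subunits, 18 paralogs and Sdhaf3. The untested subunits were ND-MNLL and UQCR-14, with 0 reads in all libraries, ND-B8 with 11 reads over all libraries and ND-MWFE with 47. The exons of ND-MNLL lie wholly within those of CG45089 on the same strand. Those of UQCR-14 and of the paralog COX5BL lie within exons of other genes on the opposite strand. Reads shared by overlapping genes are not assigned in an unstranded count. Some exon overlap with another gene was found for 35 members.

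In wild type larvae the complexes were expressed at different levels. The median subunit reached 630.2 CPM per kb for complex V and 589 for complex IV, against 298 for complex III, 174 for complex II and 131 for complex I. The highest level belonged to ATPsynC, which encodes the ring that turns in the membrane, at 1733 CPM per kb, followed by the catalytic subunit ATPsynbeta at 1395 CPM per kb. COX5A, a matrix-side subunit of cytochrome c oxidase, had 980.4 CPM per kb. Among the tested subunits the lowest levels were those of the complex I accessory subunits ND-ASHI, ND-13A and ND-AGGG, at 65.7, 67.6 and 85.9 CPM per kb. The order of the complexes by median stayed V, IV, III, II, I in the CTCF mutant, while in the other mutants complexes IV and V lay close together, with 269 for V and 272 CPM per kb for IV in the Su(Hw) double mutant.

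**Figure D1:**
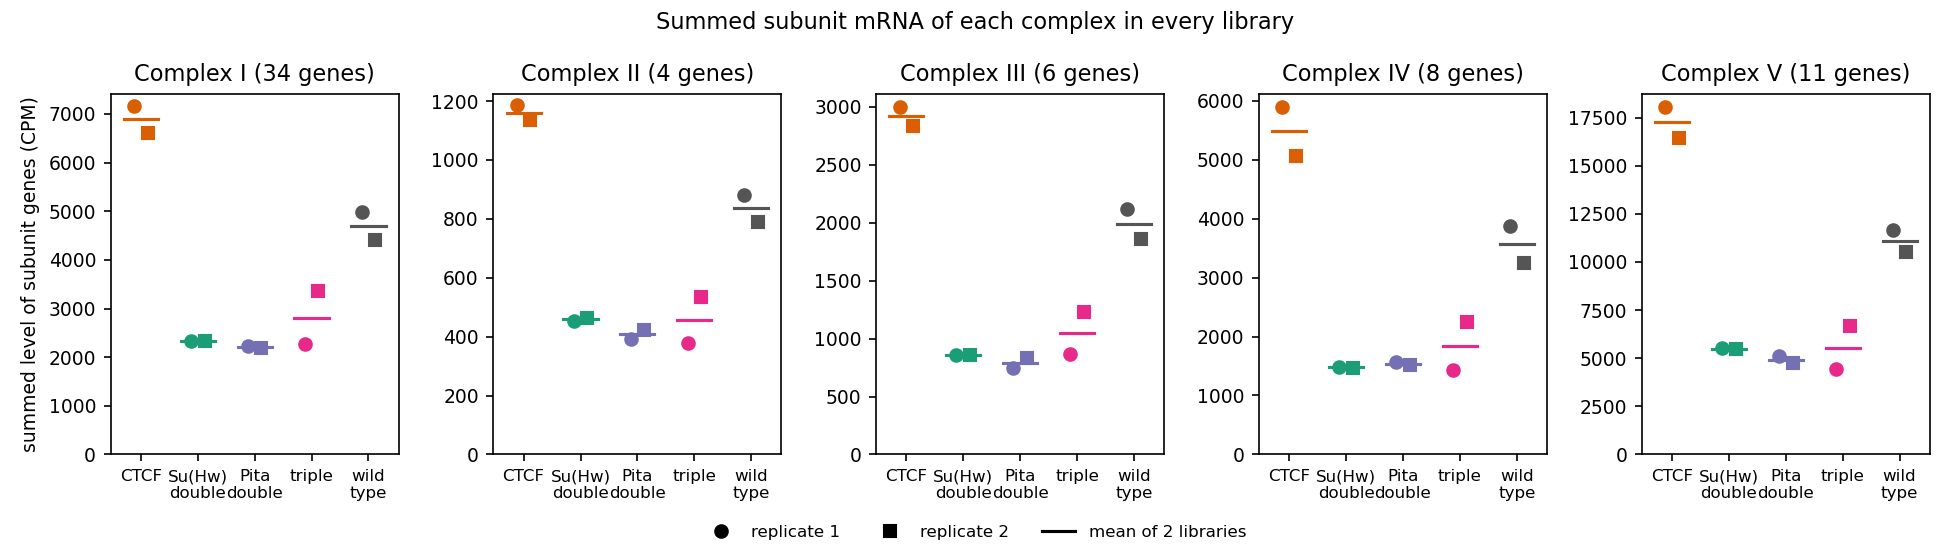
Summed CPM of the subunit genes of each complex in every library, with 2 points and a line at their mean per genotype, mutants left of wild type. In every complex both CTCF mutant libraries lie above both wild type libraries under TMM scaling, and the libraries of the double and triple mutants lie below them; for complex V the values are 18072 and 16454 CPM in the CTCF mutant and 11638 and 10496 CPM in wild type.

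Summed over the 63 subunits, the level was 35327 and 32096 CPM in the CTCF mutant, 10640.4 and 10606 in the Su(Hw) double mutant, 10045 and 9695 in the Pita double mutant, 9373 and 14027 in the triple mutant and 23492 and 20798 in wild type. Under this TMM scaling the CTCF mutant libraries were the highest and the libraries of the 3 other mutants the lowest, with no overlap with wild type in either direction. Relative to the mean of wild type, the sum was 1.52-fold in the CTCF mutant, 0.480-fold in the Su(Hw) double mutant, 0.446-fold in the Pita double mutant and 0.528-fold in the triple mutant. In whole larvae, fewer cells of a mitochondria-rich type and less RNA per cell cannot be told apart. The 4 comparisons with wild type share the wild type libraries, so their values are given side by side and are not independent of each other.

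In the CTCF mutant, the subunits of all 5 complexes lay above wild type under TMM scaling, though not all did so with library totals, and few passed the test. All 59 tested subunits had both CTCF mutant libraries above both wild type libraries, which held for 25.7% of all genes tested. Their median log2 fold change was 0.57, with a range of 0.17 to 1.30, against -0.02 over all genes. With library totals in place of TMM factors the median of all genes fell by 0.58 in this comparison. The median of the 59 subunits was then 5.73e-04 and no subunit was called. The medians of complexes I, II and III then lay at -0.04, -0.08 and -0.04. In edgeR's quasi-likelihood test with Benjamini-Hochberg adjustment, 3 subunits passed 0.05 as higher and none as lower, where 2.2% of all genes were called higher and 1.17% lower (3.37% either way). At an unadjusted p under 0.05 there were 46 subunits, and DESeq2 called 18 as higher.

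All 3 called subunits belong to complex I. ND-AGGG, a small accessory subunit of the membrane arm, had 185 and 129.7 CPM in the CTCF mutant and 64.5 and 63.4 CPM in wild type (log2 fold change 1.30 ± 0.26, adjusted p = 0.0222 in edgeR's test). ND-MLRQ, named after the MLRQ subunit of mammalian complex I that was later found with complex IV, had 786 and 634 CPM in the CTCF mutant and 396 and 373 CPM in wild type (0.89 ± 0.21, adjusted p = 0.0474). ND-B17.2, an accessory subunit of the peripheral arm, had 159.7 and 147 CPM in the CTCF mutant and 101 and 90.1 CPM in wild type (0.68 ± 0.16, adjusted p = 0.0485). In each of the 3 both mutant libraries were well above both wild type libraries, but no call of the 3 survived the removal of every single library in turn. The count over the members was 0 without either wild type library, 35 without the first triple mutant library and 36 without the second. In the other complexes the log2 fold change of COX7C was 0.86 ± 0.22, adjusted p = 0.0629, and that of SdhC was 0.70 ± 0.24, adjusted p = 0.151. ATPsynG had 0.76 ± 0.24, adjusted p = 0.114, and UQCR-C2 had 0.54 ± 0.20, adjusted p = 0.171. None of these 4 passed the threshold.

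In the Su(Hw) double mutant, subunits of all 5 complexes fell. Of 59 tested subunits 56 fell and none rose, where 17.4% of all genes were called lower and 15.8% higher (33.3% either way). The median log2 fold change was -1.15 with a range of -1.89 to -0.30, against -0.01 over all genes. By complex, 29 of 31 subunits of complex I fell, 3 of 4 of complex II, 5 of 5 of complex III, 8 of 8 of complex IV and 11 of 11 of complex V. The 3 that did not pass were ND-51, the flavoprotein that takes electrons from NADH (-0.43 ± 0.18, adjusted p = 0.0871), ND-ASHI (-0.59 ± 0.22, adjusted p = 0.0608) and SdhA, the flavoprotein that oxidises succinate (-0.30 ± 0.18, adjusted p = 0.199). All 59 subunits had both mutant libraries below both wild type libraries, which held for 38% of all genes. With library totals in place of TMM factors the median of all genes rose by 0.48, 37 subunits were called lower, and ND-51 and SdhA lay at 0.06 and 0.18. The count of subunits was 36 with the close Su(Hw) double mutant libraries summed into 1, 35 and 33 without the first and the second of them, and 40 without the first wild type library.

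The largest fall in this mutant was that of ND-B14.5A, an accessory subunit of complex I, with 43.7 and 41.2 CPM in the Su(Hw) double mutant and 176 and 139 CPM in wild type (-1.89 ± 0.26, adjusted p = 6.31e-04). SdhC, a membrane anchor of succinate dehydrogenase, had 68.9 and 72.5 CPM in the Su(Hw) double mutant and 217 and 192 CPM in wild type (-1.53 ± 0.25, adjusted p = 0.00139). UQCR-C2, a core protein of complex III, had 246 and 238 CPM in the Su(Hw) double mutant and 689.7 and 576 CPM in wild type (-1.39 ± 0.20, adjusted p = 7.81e-04). In all 3 genes the mutant libraries were nearly equal to each other and far below wild type. COX5A had 254 and 253 CPM in the Su(Hw) double mutant and 872 and 689 CPM in wild type (-1.62 ± 0.24, adjusted p = 9.38e-04). ATPsynG, a subunit of the membrane part of ATP synthase, had 189 and 184 CPM in the Su(Hw) double mutant and 518 and 477 CPM in wild type (-1.42 ± 0.24, adjusted p = 0.00185). The next subunits by size were ND-B14.5B at -1.64 and ND-B12 at -1.55 in complex I, SdhD at -1.18 in complex II, UQCR-6.4 at -1.35 and UQCR-Q at -1.29 in complex III, COX7C at -1.45 and COX7B at -1.44 in complex IV, and ATPsyndelta at -1.34 in complex V.

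In the Pita double mutant, all 59 tested subunits fell, where 19.2% of all genes were called lower and 18.6% higher (37.8% either way). The median log2 fold change was -1.10, with a range of -1.58 to -0.55, against -0.00 over all genes. The libraries of the groups overlapped for none of the 59, and both mutant libraries were below both wild type libraries for 35.6% of all genes. UQCR-C2 had the largest fall, with 187 and 236 CPM in the Pita double mutant and 689.7 and 576 CPM in wild type (-1.58 ± 0.20, adjusted p = 3.00e-04). ND-75, the large iron-sulfur protein of complex I, had 111 and 151 CPM in the Pita double mutant and 390.1 and 349.8 CPM in wild type (-1.5 ± 0.18, adjusted p = 2.43e-04). Its level in the Su(Hw) double mutant, 202 and 204 CPM, lay between these groups (-0.86 ± 0.18, adjusted p = 0.00496 against wild type). SdhB, the iron-sulfur protein of complex II, had 90.5 and 100.3 CPM in the Pita double mutant and 252 and 225 CPM in wild type (-1.32 ± 0.15, adjusted p = 1.76e-04).

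SdhC lay at 81.5 and 75.5 CPM in the Pita double mutant and 217 and 192 CPM in wild type (-1.38 ± 0.25, adjusted p = 0.00188). COX5A lay at 278 and 267 CPM in the Pita double mutant and 872 and 689 CPM in wild type (-1.52 ± 0.24, adjusted p = 0.00105). ATPsyndelta, of the central stalk of ATP synthase, lay at 174 and 157 CPM in the Pita double mutant and 471 and 430.5 CPM in wild type (-1.44 ± 0.19, adjusted p = 3.44e-04). Every one of these mutant libraries held less than the lower wild type library. Further falls were those of ND-B14.5B (-1.46), ND-B14.5A (-1.42), UQCR-6.4 (-1.39), UQCR-Q (-1.30), COX7B (-1.45), COX7C (-1.32), ATPsynG (-1.41) and ATPsynF (-1.40). With library totals, which moved the median of all genes by 0.49, 41 subunits were called lower. The smallest change, at -0.55, was that of ND-51, with 93.1 and 108 CPM in the Pita double mutant and 154 and 142 CPM in wild type (adjusted p = 0.0320). Its value ranged from -0.68 to -0.46 when single libraries were left out, and most of those fits lost the call. DESeq2 called 58 of the 59 subunits lower in this mutant.

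In the triple mutant, 47 of 59 subunits fell and none rose, where 10.3% of all genes were called lower and 10.9% higher (21.2% either way). The median log2 fold change was -0.89, with a range of -1.39 to -0.07, and 0.00 over all genes. Complex I accounted for 10 of the 12 subunits that did not pass, with ND-20, ND-23, ND-39, ND-42, ND-51, ND-AGGG, ND-ASHI, ND-B14.5A, ND-MLRQ and ND-SGDH, and the other 2 were SdhD and ATPsynE. The libraries overlapped with wild type for 3 subunits, and both were below wild type for the other 56, as they were for 29.2% of all genes. The triple mutant libraries differed from each other: the second was above the first in 59 of 59 subunits, by a median of 0.63 on the log2 scale, where the gap in the other groups had a median of at most 0.18. The count of subunits was 36 without the first triple mutant library, 57 without the second, and for all members 17 without the first wild type library. With library totals, which moved the median of all genes by 0.14, 41 subunits were called lower and ND-51 lay at 0.04.

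ND-75 had 145 and 147 CPM in the triple mutant and 390.1 and 349.8 CPM in wild type (-1.34 ± 0.18, adjusted p = 4.37e-04). SdhB had 105 and 111 CPM in the triple mutant and 252 and 225 CPM in wild type (-1.14 ± 0.15, adjusted p = 3.41e-04). ATPsyndelta had 158 and 209 CPM in the triple mutant and 471 and 430.5 CPM in wild type (-1.30 ± 0.19, adjusted p = 6.22e-04). In these genes both triple mutant libraries were low. In contrast ND-AGGG had 43.3 and 78.8 CPM in the triple mutant and 64.5 and 63.4 CPM in wild type, with the wild type libraries between the mutant ones (-0.08 ± 0.26, adjusted p = 0.858). ND-51 had 119 and 163 CPM in the triple mutant and 154 and 142 CPM in wild type, again with wild type in between (-0.07 ± 0.18, adjusted p = 0.818). Other falls were those of ND-B17 (-1.09), ND-13A (-1.08), SdhC (-1.05), UQCR-6.4 (-1.39), UQCR-11 (-1.16), UQCR-C2 (-1.10), COX7B (-1.15), COX5A (-1.08), COX7A (-0.96), ATPsynCF6 (-1.12) and ATPsynC (-1.11). Across genotypes, 46 of the 59 subunits were called lower than wild type in all of the Su(Hw) double, Pita double and triple mutants, all 59 in at least 1 of these, and 10 in both double mutants but not in the triple mutant. Taken singly, 17.4%, 19.2% and 10.3% of all genes were called lower in the Su(Hw) double, Pita double and triple mutants. The shares of all genes with the shared patterns were not counted. The comparisons share the wild type libraries, so their calls are not independent and these counts are a description only. The difference between the triple and the double mutants was not tested by these counts.

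**Figure D2:**
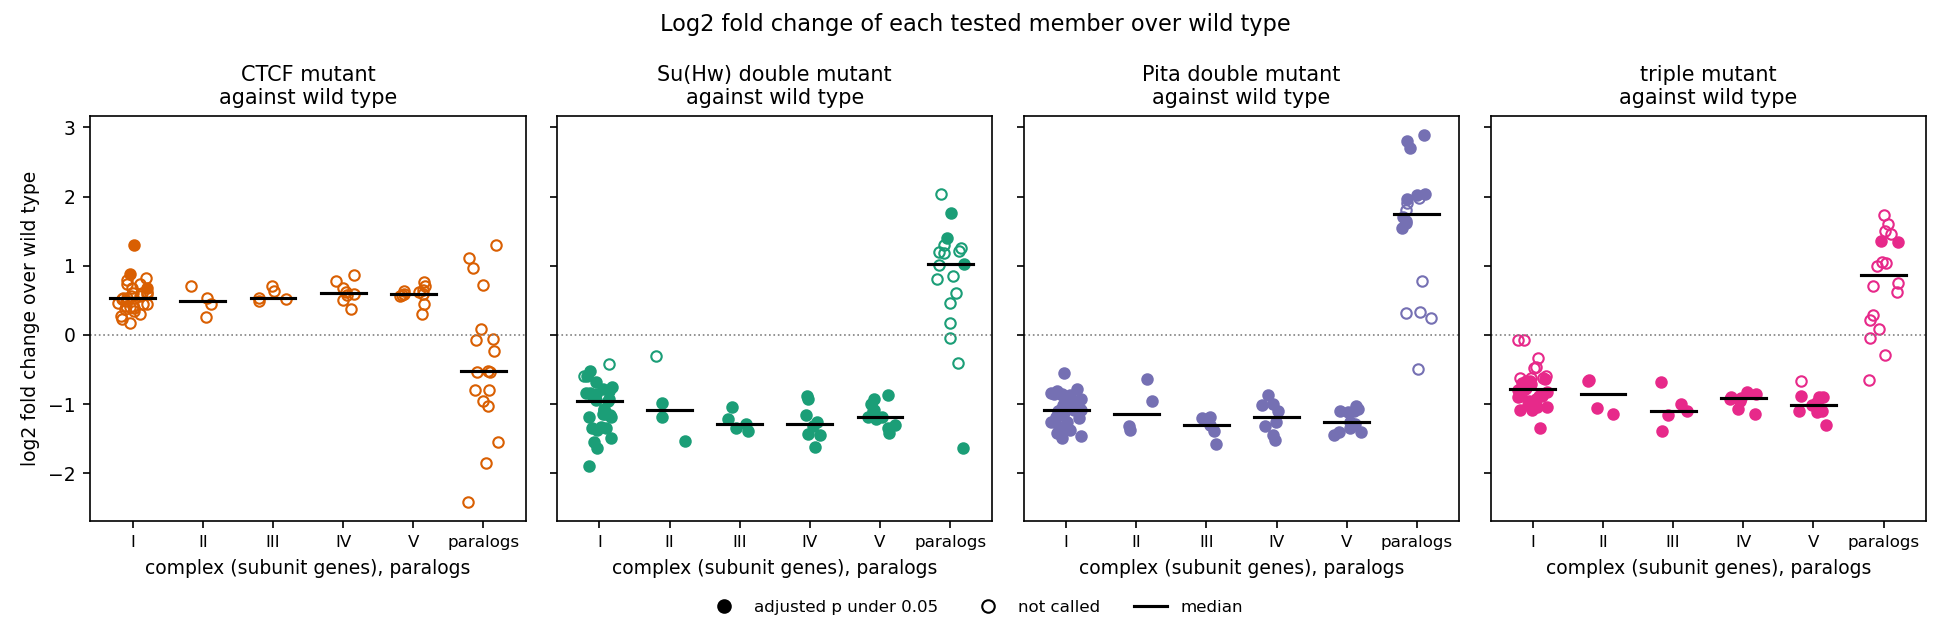
Log2 fold change of every tested member over wild type under TMM scaling, by complex for the subunits and together for the paralogs, 1 panel per mutant, with filled points past an adjusted p of 0.05 and a line at the median. The subunit medians lie at 0.49 to 0.60 in the CTCF mutant, where those of complexes I, II and III lie just below 0 with library totals, and all below 0 in the double and triple mutants.

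The Su(Hw) and Pita mutations were each also compared with the CTCF mutant they were added to, and here every tested subunit fell. With SuHwdelta114 added 59 of 59 subunits fell, where 21.4% of all genes were called lower and 20% higher (41.4% either way), with a median log2 fold change of -1.76 against 0.06 over all genes. With PitadeltaCP1 added 59 of 59 subunits fell too, where 22.6% of all genes were called lower and 21.4% higher (44.1% either way), with a median of -1.76 against 0.06. With library totals the median of all genes moved by 1.06 in both comparisons and 37 and 38 subunits were called lower. SdhA then lay at 0.49 with the Su(Hw) and 0.15 with the Pita mutation added, ND-51 at 0.14 and 0.02, and ND-75 at 0.02 with the Su(Hw) mutation added. ND-B14.5A had 43.7 and 41.2 CPM in the Su(Hw) double mutant and 324 and 222 CPM in the CTCF mutant (-2.68 ± 0.27, adjusted p = 6.93e-05). It had 60.5 and 57.3 CPM in the Pita double mutant (-2.21 ± 0.26, adjusted p = 1.37e-04 against the CTCF mutant). Both double mutants were several-fold below both CTCF mutant libraries. COX7C, a small membrane-spanning subunit of complex IV, had 148 and 148 CPM in the Su(Hw) double mutant and 822 and 658 CPM in the CTCF mutant (-2.32 ± 0.23, adjusted p = 7.22e-05). In the Pita double mutant it had 167 and 159 CPM (-2.18 ± 0.23, adjusted p = 8.63e-05 against the CTCF mutant). Among the largest falls in the other complexes were those of SdhC (-2.23 with the Su(Hw) mutation added and -2.08 with the Pita mutation added), UQCR-C2 (-1.92 and -2.12) and ATPsynG (-2.18 and -2.17), the first value for the Su(Hw) mutation in each pair. These comparisons share the CTCF mutant libraries.

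The effect of the Su(Hw) mutation differed between the CTCF Pita and the CTCF background for nearly all subunits. The difference was taken as the log2 change with the Su(Hw) mutation on the CTCF Pita background minus that on the CTCF background. By this measure 58 of 59 subunits were called with a positive value and none with a negative one, where 23.2% of all genes were called positive and 22.1% negative (45.3% either way). The median was 1.96, with a range of 0.56 to 3.34, against -0.05 over all genes. SdhA was the exception (0.56 ± 0.25, adjusted p = 0.0882). With library totals, which moved the median of all genes by -1.40, 24 subunits were called positive, SdhA was called negative at -0.88, and COX4, ND-51 and ND-75 lay at -0.06, -0.04 and -0.22. UQCR-C2, for example, had 257 and 335 CPM in the triple mutant and 187 and 236 CPM in the Pita double mutant. It had 246 and 238 CPM in the Su(Hw) double mutant and 956 and 881 CPM in the CTCF mutant (interaction 2.41 ± 0.28, adjusted p = 3.06e-04). The Su(Hw) mutation thus went with a several-fold lower level on the CTCF background, while on the CTCF Pita background both triple mutant libraries were above those without it.

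**Figure D3:**
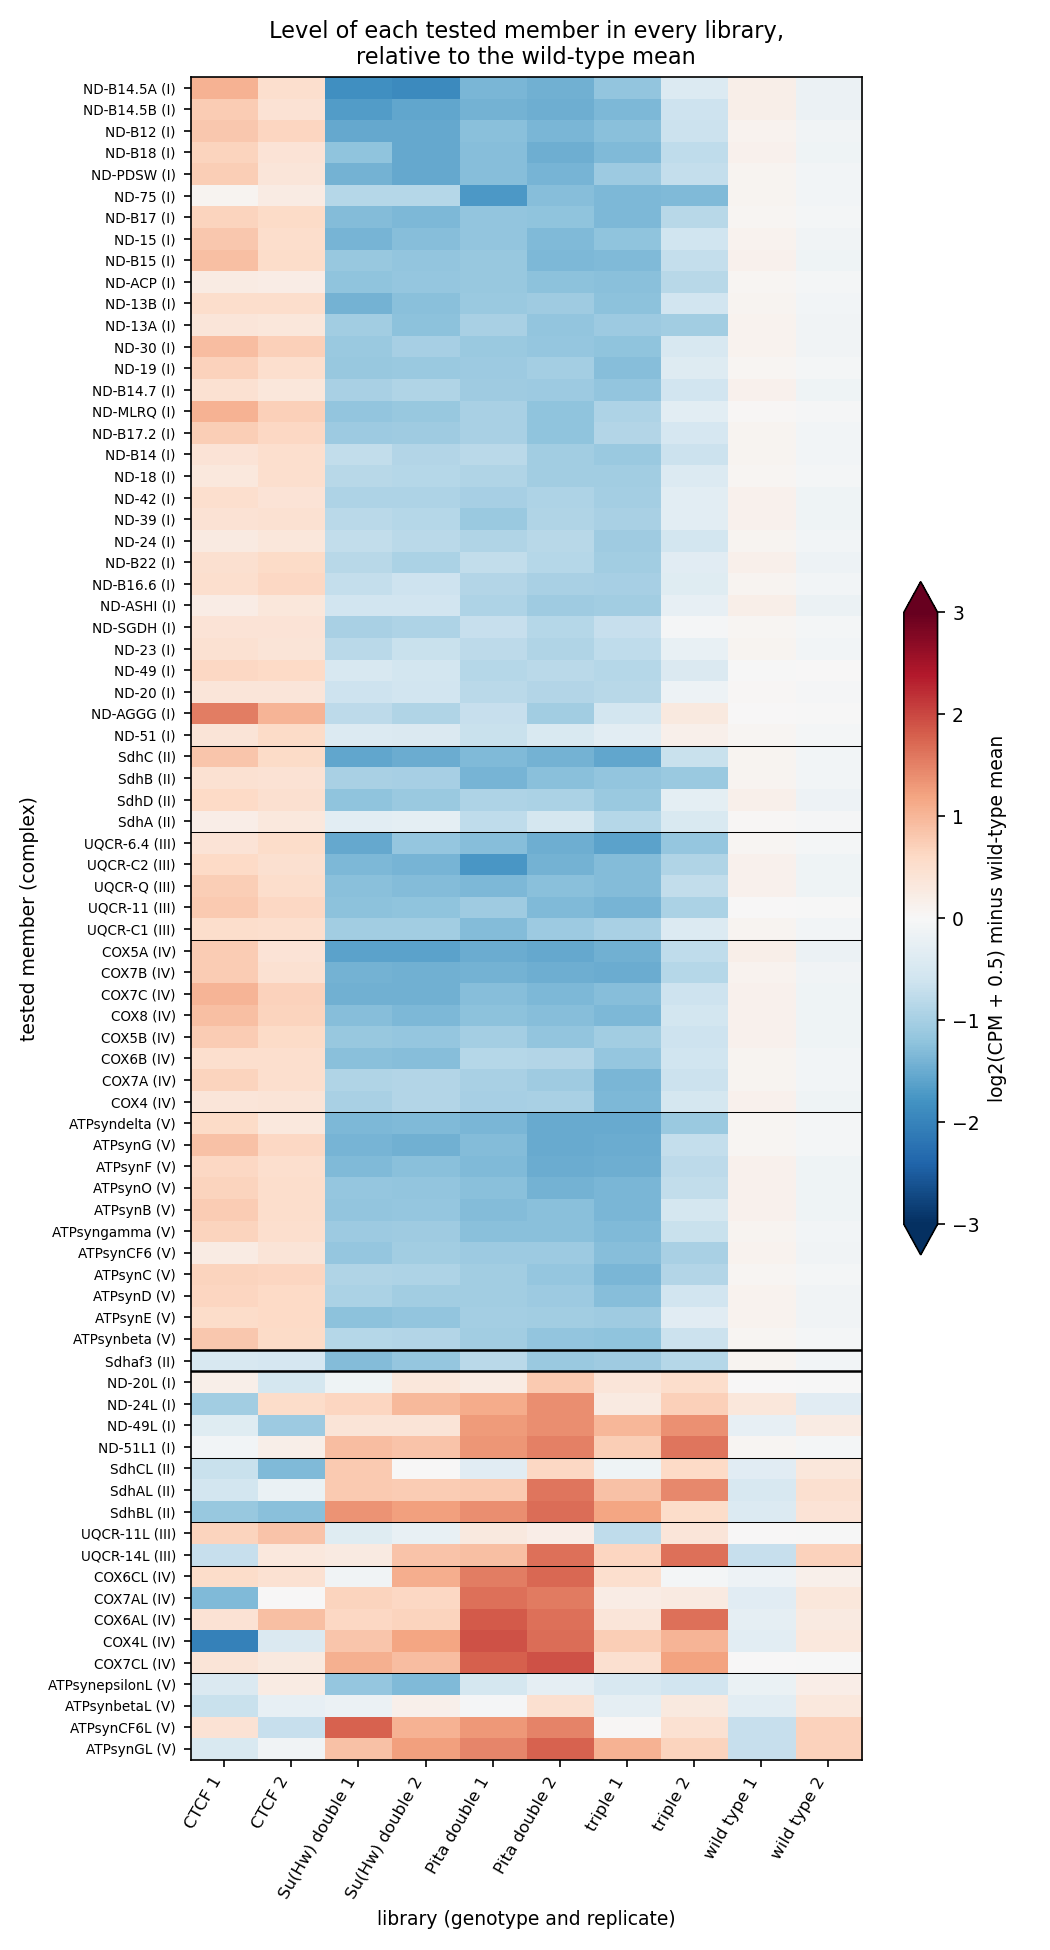
Level of each of the 78 tested members in every library as log2(CPM + 0.5) minus the mean of wild type, with mutant libraries left of wild type and subunits above paralogs; red is higher and blue lower. Nearly all subunits are red in both CTCF mutant libraries under TMM scaling and blue in the double mutants, with a paler second triple mutant library, and most paralogs are red in the Pita double mutant.

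Measured as shares, the complexes kept nearly the same proportions while their sum changed. Complex V supplied 51.2% and 51.3% of the summed CPM of the 63 subunits in the CTCF mutant, 51.8% and 51.6% in the Su(Hw) double mutant, 50.8% and 48.9% in the Pita double mutant, 47.4% and 47.4% in the triple mutant and 49.5% and 50.5% in wild type. Complex I supplied 20.3% and 20.6% of the sum in the CTCF mutant, 22.0% and 22.1% in the Su(Hw) double mutant, 22.3% and 22.6% in the Pita double mutant, 24.1% and 24.0% in the triple mutant and 21.2% and 21.2% in wild type. The complex I share was thus highest in the triple mutant, where the complex V share was lowest, and the spread over all libraries was a few percentage points. Complex II supplied 3.36% to 4.37%, complex III 7.41% to 9.26% and complex IV 13.9% to 16.7% over the 10 libraries.

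By median log2 fold change, complexes I and II moved least in most comparisons. In the Su(Hw) double mutant the medians were -0.96, -1.08, -1.29, -1.29 and -1.19 for complexes I to V against wild type. In the Pita double mutant they were -1.09, -1.14, -1.30, -1.18 and -1.26. In the triple mutant they were -0.79, -0.86, -1.10, -0.92 and -1.02. The gap between the complexes with the lowest and the highest median was smaller than the range among the subunits of complex I alone, and the difference between complexes was not tested. Within complex I, 7 tested core subunits, which belong to the conserved catalytic set, were set apart after their values were seen. They had a median of -0.75 in the Su(Hw) double mutant and -0.85 in the Pita double mutant, where the 24 accessory subunits had -1.14 and -1.09. Across the 59 subunits, the log2 fold change of the Su(Hw) double mutant had a Spearman correlation of 0.38 with exon length and that of the Pita double mutant one of 0.13, as a description across genes of the same libraries. The longer genes were thus lower by somewhat less in the Su(Hw) double mutant. With the wild type level per kb the Spearman correlation was -0.41 in the Su(Hw) double, -0.46 in the Pita double and -0.38 in the triple mutant. Wild type levels enter both of these values, and length and level were not separated.

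Within complex II the order of the 4 subunits by fold change was not the same in every mutant, and differences between subunits were not tested. SdhA had 293 and 320.2 CPM in the CTCF mutant, 205 and 209 in the Su(Hw) double mutant, 149.9 and 177 in the Pita double mutant, 140.0 and 185 in the triple mutant and 261 and 250.2 in wild type. SdhC had 362 and 303 CPM in the CTCF mutant, 68.9 and 72.5 in the Su(Hw) double mutant, 81.5 and 75.5 in the Pita double mutant, 69.5 and 129 in the triple mutant and 217 and 192 in wild type. In the Su(Hw) double mutant SdhC was thus far below wild type, while SdhA was close to it, and the subunits in between were SdhB (-0.98 ± 0.15, adjusted p = 9.96e-04) and SdhD (-1.18 ± 0.23, adjusted p = 0.00355). In the triple mutant the log2 fold changes were -1.14 for SdhB, -1.05 for SdhC, -0.66 for SdhD, which did not pass, and -0.65 for SdhA. Sdhaf3, an assembly factor that helps mature the iron-sulfur subunit, had 4.63 and 4.55 CPM in the CTCF mutant, 2.41 and 2.68 in the Su(Hw) double mutant, 3.60 and 2.80 in the Pita double mutant, 2.89 and 3.42 in the triple mutant and 7.02 and 6.27 in wild type. It was below wild type in every library of every mutant, the CTCF mutant included (-0.53 ± 0.28, adjusted p = 0.330 there). It fell in the other mutants (-1.38 ± 0.26, adjusted p = 0.00313 in the Su(Hw) double mutant, -1.06 ± 0.26, adjusted p = 0.00895 in the Pita double mutant and -1.09 ± 0.27, adjusted p = 0.0141 in the triple mutant).

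Among the large subunits of complex V, ATPsynC had 5120.1 and 5056 CPM in the CTCF mutant, 1724 and 1698 in the Su(Hw) double mutant, 1576 and 1457 in the Pita double mutant, 1256 and 1751 in the triple mutant and 3363 and 3112 in wild type. ATPsynbeta had 5857 and 4985 CPM in the CTCF mutant, 1833 and 1799 in the Su(Hw) double mutant, 1617 and 1467 in the Pita double mutant, 1434 and 2136 in the triple mutant and 3469.9 and 3185 in wild type. Under TMM scaling both were highest in the CTCF mutant and below wild type in all libraries of the other mutants. The log2 fold changes of ATPsynbeta were 0.70 ± 0.22, adjusted p = 0.121 in the CTCF mutant, -0.87 ± 0.22, adjusted p = 0.0126 in the Su(Hw) double mutant, -1.11 ± 0.22, adjusted p = 0.00357 in the Pita double mutant and -0.90 ± 0.22, adjusted p = 0.0145 in the triple mutant. ATPsynO, of the peripheral stalk, had a log2 fold change of 0.60 in the CTCF mutant, -1.19 in the Su(Hw) double mutant, -1.35 in the Pita double mutant and -1.02 in the triple mutant. In complex III, UQCR-C1, the other core protein, had 1109 and 1102 CPM in the CTCF mutant, 375 and 377 in the Su(Hw) double mutant, 315 and 364 in the Pita double mutant, 392 and 580.1 in the triple mutant and 818 and 732 in wild type. In complex IV, COX4, which joins the enzyme early in assembly, had 563 and 571 CPM in the CTCF mutant, 223 and 236 in the Su(Hw) double mutant, 218 and 222 in the Pita double mutant, 172 and 301 in the triple mutant and 476 and 401 in wild type. Under TMM scaling both genes were highest in the CTCF mutant and below wild type in all libraries of the other mutants. With library totals UQCR-C1 lay at -0.06 and COX4 at -0.20 in the CTCF mutant.

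The 24 paralogs were read at a very low level, and their sum was higher in the mutants that combine mutations than in wild type. Summed over all 24, tested or not, the level was 17.9 and 22.5 CPM in the CTCF mutant, 38.0 and 40.0 in the Su(Hw) double mutant, 54.5 and 66.5 in the Pita double mutant, 35.0 and 47.4 in the triple mutant and 19.1 and 30.4 in wild type. The mutants with Su(Hw) or Pita mutations lay above both wild type libraries, with no overlap, and the CTCF mutant overlapped with wild type. The ratio to the mean of wild type was 1.58 in the Su(Hw) double mutant, 2.45 in the Pita double mutant, 1.67 in the triple mutant and 0.817 in the CTCF mutant. These sums rest on 62 to 690 reads per library. The direction was thus opposite to that of the subunits in the Su(Hw) double, Pita double and triple mutants.

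**Figure D4:**
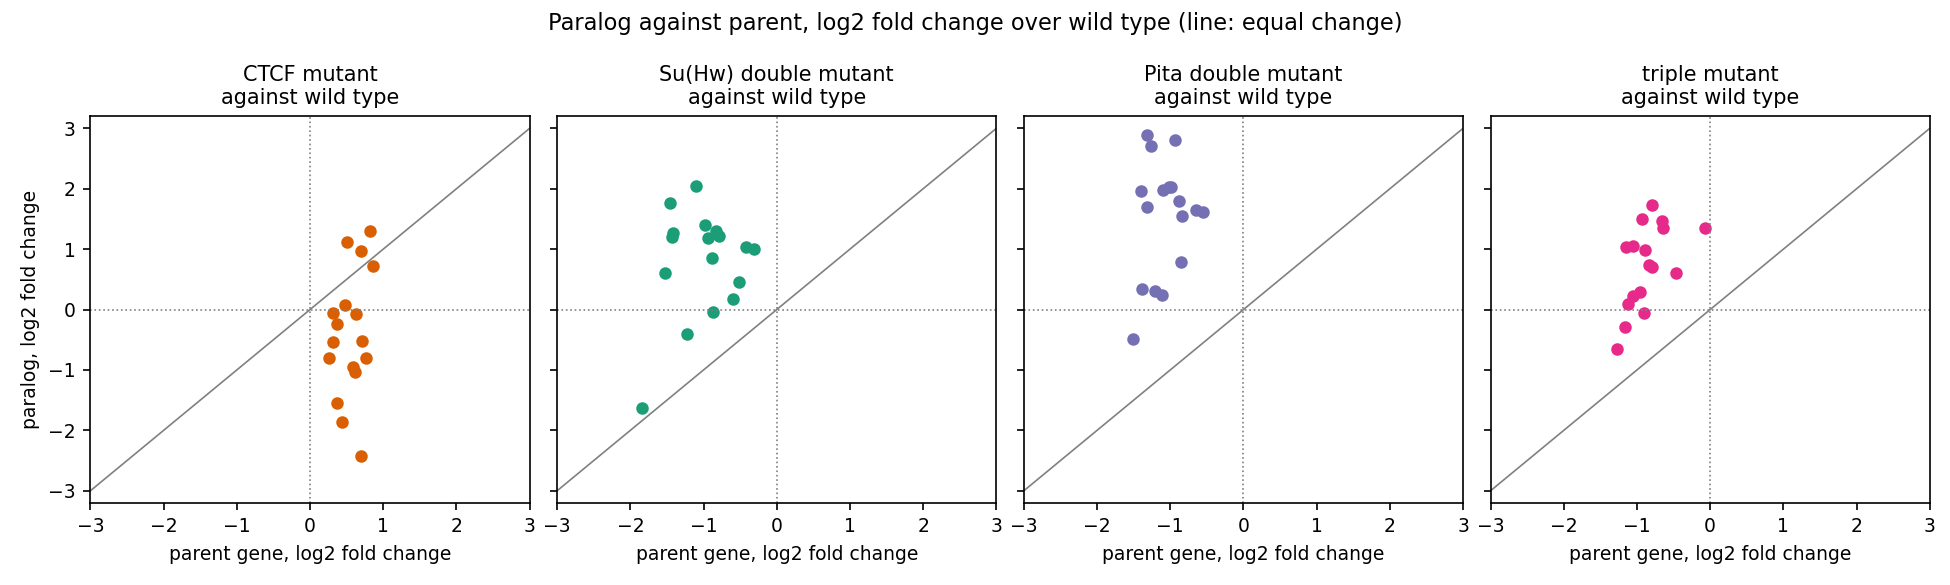
Log2 fold change over wild type of each tested paralog (vertical axis) against that of its parent (horizontal axis), 1 panel per mutant and 1 point for each of the 17 pairs; the diagonal marks equal change. In the Pita double mutant most points lie at the upper left, as does COX7CL at 2.89 with COX7C at -1.32.

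The paralogs derive from 21 parent genes. Of the 24, 17 lie on another chromosome arm than the parent, 6 have no intron although the parent has at least 1, and 5 have a parent on X, while SdhBL is the only paralog on X. Per kb, and as a description of the 17 pairs whose paralog passed the filter and whose parent had reads, the median was 0.152% of the parent in the CTCF mutant, 1.58% in the Su(Hw) double mutant, 2.18% in the Pita double mutant, 1.03% in the triple mutant and 0.358% in wild type. The highest share was that of UQCR-11L, at 8.42% of UQCR-11 in the Pita double mutant and 2.93% in wild type. The parents fell in the mutants with Su(Hw) or Pita mutations, so part of each higher ratio is a lower parent.

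Of the 18 tested paralogs, 10 were called higher and none lower in the Pita double mutant, 3 higher and 1 lower in the Su(Hw) double mutant, and 2 higher in the triple mutant. Over all genes 18.6%, 15.8% and 10.9% were called higher in the Pita double, Su(Hw) double and triple mutants, so the count of paralogs was above that share in the Pita double mutant and close to it in the other 2. None was called in the CTCF mutant, where 1 of the 18 had an unadjusted p under 0.05 and DESeq2 called none. A paralog could enter the test through the group in which it is high, so these counts describe the tested genes and not the 24. With library totals 12 were called higher in the Pita double mutant, 5 in the Su(Hw) double mutant and 2 in the triple mutant, and 1 was called lower in the CTCF mutant. In the Su(Hw) double mutant none was called higher without the first wild type library or without either library of this mutant, and 1 was without either Pita double mutant library. Without the first wild type library 2 were called higher in the Pita double mutant and 0 in the triple mutant. In the triple mutant 1 was called higher without the second wild type library, 3 without the first triple mutant library and 1 without the second. COX4L had 0 and 1.01 CPM in the CTCF mutant, 3.15 and 4.12 in the Su(Hw) double mutant, 7.19 and 5.98 in the Pita double mutant, 2.89 and 3.62 in the triple mutant and 1.14 and 2.04 in wild type. Its counts were 58 and 62 reads in the Pita double mutant and 7 and 13 reads in wild type (2.03 ± 0.44, adjusted p = 0.00510). SdhBL had 0.579 and 0.506 CPM in the CTCF mutant, 5.56 and 5.08 in the Su(Hw) double mutant, 5.83 and 7.13 in the Pita double mutant, 4.92 and 3.01 in the triple mutant and 1.31 and 2.66 in wild type. It rose in the Pita double mutant (1.70 ± 0.35, adjusted p = 0.00433) and the Su(Hw) double mutant (1.41 ± 0.36, adjusted p = 0.0125). In both genes the Pita double mutant libraries were above every wild type and CTCF mutant library.

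ND-51L1, a paralog of the NADH-binding flavoprotein, had 2.03 and 2.53 CPM in the CTCF mutant, 4.54 and 4.31 in the Su(Hw) double mutant, 6.20 and 7.13 in the Pita double mutant, 3.96 and 7.64 in the triple mutant and 2.29 and 2.04 in wild type. It was called higher in the Pita double mutant (1.62 ± 0.34, adjusted p = 0.00459), the Su(Hw) double mutant (1.03 ± 0.35, adjusted p = 0.0438) and the triple mutant (1.35 ± 0.36, adjusted p = 0.0205). Its value in the Su(Hw) double mutant ranged from 0.92 to 1.11 when single libraries were left out, and most of those fits lost the call. ND-49L had 1.16 and 0.506 CPM in the CTCF mutant, 2.32 and 2.30 in the Su(Hw) double mutant, 4.71 and 5.11 in the Pita double mutant, 3.75 and 5.02 in the triple mutant and 1.31 and 2.04 in wild type. It rose in the Pita double mutant (1.54 ± 0.35, adjusted p = 0.00654) and the triple mutant (1.35 ± 0.37, adjusted p = 0.0223). Both were above wild type in every library of the Pita double and triple mutants. COX7CL, with 19 and 27 reads in the Pita double mutant and 2 and 2 reads in wild type, had a log2 fold change of 2.89 ± 0.55, adjusted p = 0.00259, and of 1.77 ± 0.61, adjusted p = 0.0442 in the Su(Hw) double mutant. With single libraries left out, its value in the Su(Hw) double mutant ranged from 1.66 to 1.85, and most of those fits lost the call. COX7CL lies next to its parent COX7C on chromosome 2R, at chr2R:10050348-10050874 and chr2R:10048353-10050066 (dm6 coordinates, both on the forward strand). The parent fell in the same mutants, with -1.32 and -1.45. The remaining calls in the Pita double mutant were those of COX6AL (2.71), COX6CL (2.81), COX7AL (2.03), ATPsynGL (1.96) and SdhAL (1.65). SdhAL ranged from 1.02 to 2.71 there when single libraries were left out, and most of those fits lost the call. Without the first wild type library, COX7CL and ND-51L1 were the only ones of the 10 still called, and 2 were called with the salivary glue score as a covariate.

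COX6CL had only 3 reads over both wild type libraries and 33 over the Pita double mutant libraries, a ratio of 7.46 with an exact 95% interval of 2.34 to 38.0 that covers counting error alone. ATPsynepsilonL was the only paralog called lower against wild type under TMM scaling, with 1.02 and 0.862 CPM in the Su(Hw) double mutant and 2.45 and 3.45 CPM in wild type (-1.63 ± 0.40, adjusted p = 0.0103). The call was lost with library totals, with the glue score as a covariate, without the second wild type library and without either Su(Hw) double mutant library. With the Su(Hw) mutation added to the CTCF mutant, ATPsynepsilonL (-1.56 ± 0.44, adjusted p = 0.0154) and UQCR-11L (-1.37 ± 0.49, adjusted p = 0.0438) were called lower, and the call of UQCR-11L held in 2 of the 10 fits that each left out 1 library. In the same comparison SdhBL (3.26), COX4L (2.72) and ND-49L (1.49) were called higher. The CTCF mutant held 4, 4 and 6 reads of these 3 genes. Of the 18 tested paralogs 15 lay above 0 there, as did 5543 of the 10585 genes tested. With the Pita mutation added 8 paralogs were called higher and none lower. Over all genes 20% and 21.4% were called higher with the Su(Hw) and the Pita mutation added. The count with the Su(Hw) mutation added was thus not above that share. A paralog could pass the filter through a double mutant in which it is high, which favours positive values. These counts against the CTCF mutant are therefore a description only. ATPsynbetaL, the paralog of the catalytic subunit, had 46 and 86 reads in the Pita double mutant and 28 and 47 in wild type and did not pass against wild type (0.24 ± 0.31, adjusted p = 0.580). Among the 6 untested paralogs, COX5BL had 0 reads in all libraries, and COX7AL2 and UQCR-6.4L had at most 8 reads in any genotype. COX6AL2 had 19 reads in the Su(Hw) double mutant, 11 in the Pita double mutant, 8 in the triple mutant, and 0 in wild type. Against 3 reads over the group, taken as the limit of a count of 0, the scaled ratios were 3.73, 2.49 and 2.33. These ratios leave out the counting error of the mutant reads, so they are not lower bounds. ND-B14.5AL had 11 reads in the Su(Hw) double mutant, 16 in the Pita double mutant and 0 in wild type (ratios of 2.16 and 3.62 against the same limit). ND-51L2 had 13 reads in the Pita double mutant and 3 in wild type (ratio 2.94, 95% interval 0.808 to 16.1). It had 17 reads in the triple mutant (ratio to wild type 4.95, 95% interval 1.43 to 26.4) and 11 in the Su(Hw) double mutant (ratio 2.16, 95% interval 0.571 to 12.1).

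Testis transcripts were higher in the same mutants as the paralogs. The summed level of a list of 32 testis genes, which includes transcription factors of spermatocytes such as aly and can, was 64.0 and 79.9 CPM in the CTCF mutant, 260.4 and 270.4 in the Su(Hw) double mutant, 298 and 380.4 in the Pita double mutant, 203 and 148 in the triple mutant and 80.5 and 126 in wild type. Of the 29 testable genes of this list, 20 rose and 1 fell in the Su(Hw) double mutant. In the Pita double mutant 20 rose, in the triple mutant 6 rose, and none was called in the CTCF mutant. Over all genes 15.8%, 18.6% and 10.9% were called higher in the Su(Hw) double, Pita double and triple mutants. The testis tubulin betaTub85D had 0.868 and 4.55 CPM in the CTCF mutant, 18.4 and 18.1 in the Su(Hw) double mutant, 21.3 and 30.1 in the Pita double mutant, 15.6 and 19.1 in the triple mutant and 2.45 and 5.80 in wild type. The sex of the larvae is not given, and the part of testis RNA in the paralog result was not tested.

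Genes of other names that encode subunits of the same complexes followed the subunits. A list chosen for this held 7 genes (Cyt-c1, RFeSP and ox of complex III, levy and cype of complex IV, blw and sun of complex V). Of these, 6 fell in the Su(Hw) double, 7 in the Pita double and 6 in the triple mutant. None was called in the CTCF mutant. Over all genes 17.4%, 19.2% and 10.3% were called lower in the Su(Hw) double, Pita double and triple mutants. The largest falls were those of sun, the epsilon subunit of ATP synthase (-1.84 ± 0.22, adjusted p = 2.91e-04 in the Su(Hw) double mutant), and levy, a subunit of cytochrome c oxidase (-1.44 ± 0.24, adjusted p = 0.00176). Cyt-c-p, the somatic cytochrome c, had 179 and 287 CPM in the CTCF mutant, 105 and 114 in the Su(Hw) double mutant, 121 and 132 in the Pita double mutant, 109 and 118 in the triple mutant and 238 and 253 in wild type. It fell in the Su(Hw) double (-1.17 ± 0.21, adjusted p = 0.00234), Pita double (-0.96 ± 0.20, adjusted p = 0.00485) and triple mutants (-1.12 ± 0.21, adjusted p = 0.00290). Its value in the CTCF mutant was -0.07 ± 0.20, adjusted p = 0.885, where the subunits had positive values.

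The subunits encoded in mitochondrial DNA had the direction of the nuclear ones in some comparisons and not in others. All 12 tested transcripts rose in the CTCF mutant, with a median log2 fold change of 2.05, where 2.2% of all genes were called higher. Against wild type 1 fell in the Su(Hw) double mutant, where 17.4% of all genes were called lower. None was called in the Pita double or the triple mutant. The medians were -0.65 in the Su(Hw) double mutant, with 12 of 12 below 0, -0.04 in the Pita double mutant, with 7 below 0, and 0.65 in the triple mutant, with 11 above 0. For example, mt:CoI, the catalytic subunit of complex IV, had 42314 and 32354 CPM in the CTCF mutant, 8375 and 8388 in the Su(Hw) double mutant, 11474 and 8949.9 in the Pita double mutant, 9509 and 25366 in the triple mutant and 11075 and 10085 in wild type. Its log2 fold changes were 1.82 ± 0.39, adjusted p = 0.0298 in the CTCF mutant, -0.34 ± 0.37, adjusted p = 0.509 in the Su(Hw) double mutant, -0.05 ± 0.37, adjusted p = 0.928 in the Pita double mutant and 0.72 ± 0.38, adjusted p = 0.198 in the triple mutant. Against the CTCF mutant, all 12 fell in both double mutants, and the interaction was called with a positive value for all 12. Over all genes 21.4% and 22.6% were called lower with the Su(Hw) and the Pita mutation added, and 23.2% had a positive interaction called. The share of mitochondrial reads was 34.6% and 24.2% in the CTCF mutant, so levels within 1 genotype differed between its libraries too.

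Other mitochondrial genes moved with the subunits in part. Of 13 listed citric acid cycle genes, 7 fell in the Su(Hw) double, 10 in the Pita double and 9 in the triple mutant. None rose, and none was called in the CTCF mutant. Over all genes 17.4%, 19.2% and 10.3% were called lower in the Su(Hw) double, Pita double and triple mutants. Mdh2, mitochondrial malate dehydrogenase, had log2 fold changes of -1.07 ± 0.20, adjusted p = 0.00337 in the Su(Hw) double mutant and -1.14 ± 0.21, adjusted p = 0.00199 in the Pita double mutant. Of 8 carriers and channels, 5 fell in the Su(Hw) double mutant, 4 fell and 1 rose in the Pita double mutant, and 4 fell in the triple mutant. They include porin, the channel of the outer membrane (-1.15 ± 0.17, adjusted p = 8.66e-04 in the Su(Hw) double mutant), and sesB, the ADP/ATP carrier (-0.65 ± 0.19, adjusted p = 0.0215). Of 7 mitochondrial chaperones and proteases, 3 fell in the Pita double mutant, where 19.2% of all genes were called lower (37.8% either way). None was called in the other mutants. Of 11 tested regulators of mitochondrial genes, 1 rose and 1 fell in the Su(Hw) double mutant, 1 rose and 3 fell in the Pita double mutant, and none was called in the CTCF or triple mutants. These counts were no higher than the shares over all genes, 33.3% called either way in the Su(Hw) double mutant and 37.8% in the Pita double mutant. Among them srl, the fly homolog of the coactivator PGC-1, rose in the Su(Hw) double (0.73 ± 0.17, adjusted p = 0.00860) and Pita double mutants (0.54 ± 0.17, adjusted p = 0.0302), and TFAM, which packages mitochondrial DNA, fell in both (-0.71 ± 0.16, adjusted p = 0.00668 in the Su(Hw) double mutant and -0.78 ± 0.16, adjusted p = 0.00392 in the Pita double mutant). The other falls in the Pita double mutant were those of PolG1, the catalytic subunit of the mitochondrial DNA polymerase (-0.98 ± 0.25, adjusted p = 0.0102), and mTTF, a transcription termination factor of mitochondria (-0.56 ± 0.19, adjusted p = 0.0404).

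**Figure D5:**
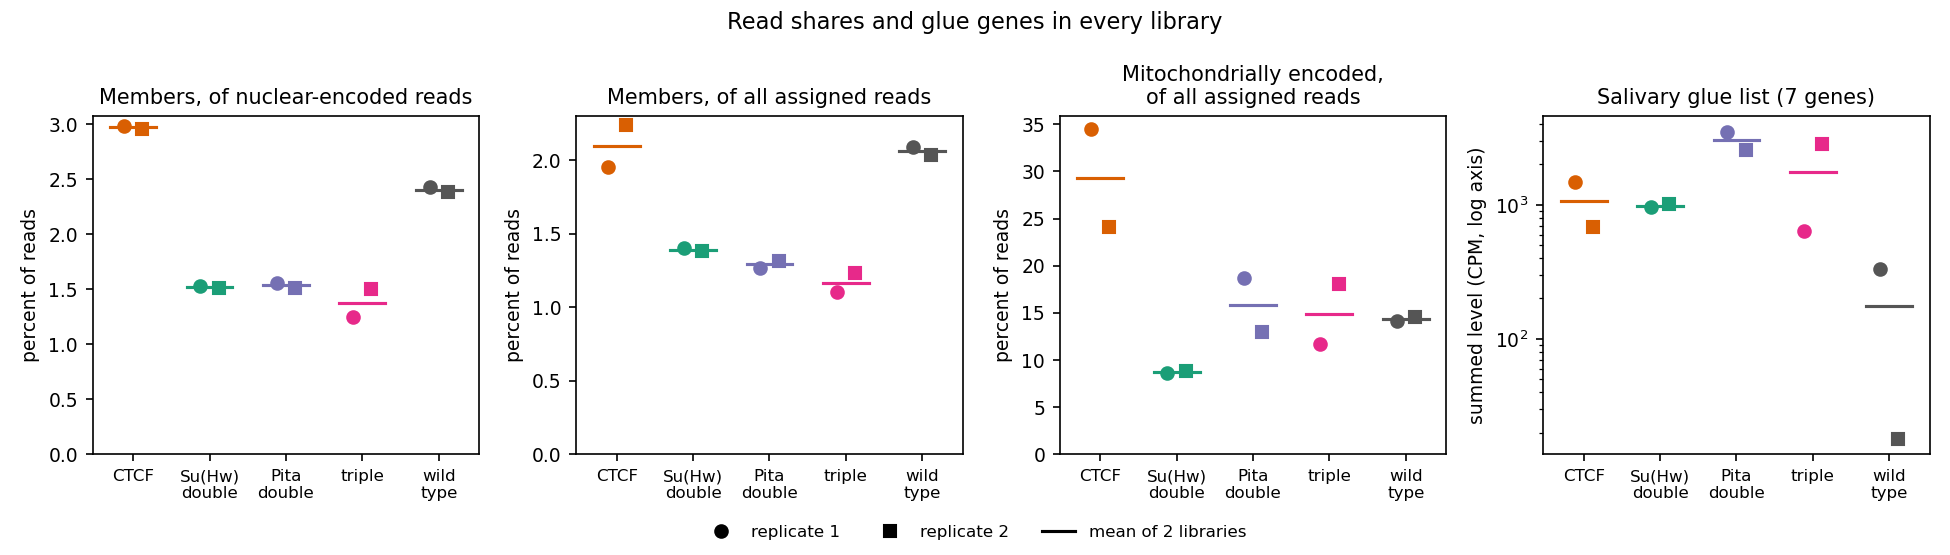
Shares of reads taken by the members (of nuclear reads and of all assigned reads) and by mitochondrially encoded genes, and the summed CPM of 7 salivary glue genes on a log axis, for each library, with lines at the mean of 2 libraries and mutants left of wild type. The mitochondrial share is highest in the CTCF mutant, at 34.6% and 24.2%, and glue RNA is lowest in the second wild type library, at 17.9 CPM.

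Markers of larval tissues also differed between genotypes. Summed muscle markers had 84951 and 91082 CPM in the CTCF mutant, 54289.5 and 56417 in the Su(Hw) double mutant, 37269.9 and 39276 in the Pita double mutant, 38972 and 39627 in the triple mutant and 80199.6 and 78748 in wild type. Of 16 muscle genes 7 fell in the Su(Hw) double mutant, 13 in the Pita double mutant and 14 in the triple mutant. The shares of all genes called lower there were 17.4%, 19.2% and 10.3%. Fat body markers had 84114 and 76305 CPM in the CTCF mutant, 56739 and 58322 in the Su(Hw) double mutant, 48251 and 44734 in the Pita double mutant, 37285 and 43147 in the triple mutant and 61914 and 54412 in wild type. Midgut markers had 30962 and 21866 CPM in the CTCF mutant, 6899 and 6958 in the Su(Hw) double mutant, 7915 and 4642 in the Pita double mutant, 13174 and 25379 in the triple mutant and 11597 and 7178 in wild type. Summed muscle and fat body RNA was thus lowest in the Pita double and triple mutants, and midgut RNA was uneven between libraries. Of 8 fat body genes, though, 3 rose in the Su(Hw) double mutant and 1 in the Pita double mutant, and none fell. In the triple mutant 1 rose and 2 fell, so the fat body sums do not stand for the whole list. Of 9 midgut genes 1 rose in the Su(Hw) double, 3 rose and 1 fell in the Pita double, and 4 rose in the triple mutant. Over all genes 15.8%, 18.6% and 10.9% were called higher in these 3 mutants. In the CTCF mutant 2 of 8 fat body, 2 of 9 midgut and 1 of 7 glue genes were called higher and none lower. No muscle or neuronal gene was called there, where 2.2% of all genes were called higher. The salivary glue genes, which are switched on late in the last larval stage, had 1469.7 and 681 CPM in the CTCF mutant, 958 and 1009 in the Su(Hw) double mutant, 3512 and 2584 in the Pita double mutant, 634 and 2852 in the triple mutant and 332 and 17.9 in wild type. Wild type thus had the least glue RNA, its second library by far, and the triple mutant libraries differed in glue and midgut RNA as they did in the subunits. Neuronal markers were higher in the double mutants, with 8 and 8 of 12 genes called. The part of tissue makeup and of larval age in the subunit result was not tested. A fit with the glue score as a covariate was chosen after the data were seen. In it 55, 52 and 42 subunits were called lower in the Su(Hw) double, Pita double and triple mutants and none was called in the CTCF mutant. The score, a mean log2 level of the glue genes centred over libraries, was -1.36 and -5.20 in wild type. It was -0.70 to 2.43 in the mutants, so this fit cannot separate genotype from larval age or tissue makeup.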

How the data were processed

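The authors deposited 1 table of raw counts per gene for each of the 10 libraries, with an unstranded and 2 stranded count columns; per the submitters' processing notes, cutadapt and STAR were used with the dm6 build. Tool versions and annotation release were not given in the sources used here. The word read stands for 1 such count, single or paired. The unstranded counts were used because 50.1% to 50.3% of stranded counts fell on the forward strand, so antisense neighbours cannot be told apart. Gene names and exon lengths came from the Ensembl BDGP6.54 annotation. 25.6% to 39.8% of the reads of a library were assigned to genes, and 50.9% to 65.5% mapped to several places and were not counted, which can lower the counts of near-identical copies.

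The filter filterByExpr kept 10585 genes and removed 7150. Counts were scaled with TMM factors (0.553 to 1.35) and tested with the two-sided quasi-likelihood test of edgeR 4.0.16 in R 4.3.3, in 1 model of all 10 libraries with 5 residual degrees of freedom. Adjusted p-values are Benjamini-Hochberg values over all genes tested in a comparison, and the threshold was 0.05. Errors given after ± are standard errors of log2 fold changes. An exact permutation test of 2 against 2 libraries cannot go below p = 0.333, so all tests rest on the variance model. The procedure was tested on simulated data.

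The members and gene lists were chosen with earlier results of these data known, so they are no independent support for any direction. In each comparison the text names, per complex, at most 3 called members per direction, those of largest change among members whose libraries do not overlap, and always a fixed set of central subunits, subunits with other names and the paralogs. The split of complex I into core and accessory subunits was made after the values were seen. Alternatives were DESeq2 1.42.0, other scalings, no filter, a replicate block, a glue score covariate and leaving out each library. The labels do not say that replicate numbers pair the libraries, and the main model did not pair them. Deviations of same-numbered libraries from their group means correlated at -0.15 to 0.15 over genes, which cannot exclude pairing. Intervals of read ratios are exact at 95% and, like the limit of 3 reads for a count of 0, cover counting error alone. Ratios against that limit leave out the counting error of the other group. No sequences are printed.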

Additional observations from a re-analysis of the deposited data

Results flagged for a closer look

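The effect of the Su(Hw) mutation differed by background in the test of the difference itself, the interaction term of edgeR's quasi-likelihood test, which is the log2 change on the CTCF Pita background minus that on the CTCF background. It was called with a positive value for 58 of 59 subunits and with a negative value for 7 of 18 tested paralogs. Over all genes 23.2% were called positive and 22.1% negative. A paralog could enter the test through a double mutant in which it is high, which favours negative values, so its count is a description only. The 7 paralogs became 15 with library totals, 3 without the first Su(Hw) double mutant library or the second Pita double mutant library, and 4 without the second CTCF mutant library, the second Su(Hw) double mutant library or the first triple mutant library. Of the subunits, ND-B14.5A had 3.34, SdhC 2.56, UQCR-C2 2.41, COX7C 2.71 and ATPsynG 2.53. Of the paralogs, ND-49L had -1.68, SdhBL -3.92 and COX4L -3.75. ATPsynCF6L had -4.46. The CTCF mutant libraries held 6 reads of ND-49L, 4 each of SdhBL and COX4L and 2 of ATPsynCF6L in all, so these values depend on the small count that edgeR adds before taking logs. The part of the lower starting level in the Pita double mutant, of glue RNA and of the gap between the triple mutant libraries in this difference was not tested. Groups of 2 libraries are too small for a check of single outlying values.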

How the results depend on the processing

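With library totals no subunit was called in the CTCF mutant and 1 paralog was called lower. The number of members called in this mutant was least stable. It was 3, against 12 with no filter, 18 with DESeq2, 1 with a replicate block, 0 with the glue score as a covariate (chosen after the data were seen), 0 with the close Su(Hw) double mutant libraries summed (also chosen afterwards), and 0 to 36 when single libraries were left out. In the Su(Hw) double mutant 61 members were called, 37 with its libraries summed and 34 to 63 when single libraries were left out. The counts were 50 in the triple mutant (17 to 59 with single libraries left out), 70 in the Pita double mutant (53 to 71), and 65 for the interaction (40 with library totals). Where 1 library of a group was left, its spread was taken from the other groups. The block moved no other count of members by over 1.5 times. Counts elsewhere stayed within 1.5 times under RLE factors and without mitochondrially encoded genes.

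Values that changed sign did so mostly with library totals in place of TMM. In the CTCF mutant against wild type, the median of all members then was -0.043, of complex I -0.043, of complex II -0.085 and of complex III -0.040, with COX4 at -0.20, ND-51 at -0.078, ND-75 at -0.39, SdhA at -0.31, SdhB at -0.13 and UQCR-C1 at -0.061. In the Su(Hw) double mutant ND-51 had 0.063 and SdhA 0.18, and in the triple mutant ND-51 had 0.038. With the Su(Hw) mutation added ND-51 had 0.14, ND-75 0.019 and SdhA 0.49, and with the Pita mutation added ND-51 had 0.017 and SdhA 0.15. For the interaction COX4 had -0.062, ND-51 -0.042, ND-75 -0.22 and SdhA -0.88. The paralog median of the CTCF mutant was 0.087 with the glue score covariate and ranged from -0.82 to 0.0033 when single libraries were left out, and ND-51 in the triple mutant ranged from -0.31 to 0.14. Library totals count mitochondrial and other abundant RNA in the denominator; the cause of the other changes was not tested. Paralog values rest on few reads, which limits their precision.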

Other observations

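Of the 59 tested subunits, 10 lie on the X chromosome, and their median log2 fold change was -0.86 in the Su(Hw) double mutant, where that of all 59 was -1.15. With the Su(Hw) mutation added to the CTCF mutant, the 10 had -1.26 and all 59 -1.76. In the Pita double and triple mutants the 10 had -1.0 and -0.78, and all 59 had -1.10 and -0.89. Most of the 10 belong to complex I, whose median was -0.96 in the Su(Hw) double mutant. ND-B14.5A, with the largest fall of all subunits there (-1.89), is also among them. The difference was not tested, and chromosome and complex were not separated.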
